A study of Mus musculus with 2 samples.

Results

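GC-rich distal sites are stretches of open chromatin that lie away from annotated protein-coding promoters and have many G and C bases. They were chosen on chromosomes 1 to 19 by joining peaks of the replicates into 1 region wherever they shared 1 bp or more. Such a region was kept where it held a peak of each replicate, where its midpoint lay 2.5 to 100 kb from the nearest protein-coding transcription start site (TSS), and where at least 60% of the 150 bp around the midpoint were G or C. The rule kept 6153 of 574914 merged autosomal regions. Of these regions, 87757 (15.3%) held a peak of each replicate, 43876 of them at that distance from a TSS, and the GC-rich sites made up 14.0% of these 43876 distal shared sites. The other 37723 are called distal shared sites of lower GC.

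The series measured open chromatin with DNase-seq: nuclei are treated with DNase I, which cuts exposed DNA, and the cut ends are sequenced. The tissue was midbrain of B6NCrl mouse embryos at 11.5 days, from pools of both sexes, with no transgene, mutation or treatment named in the labels. The only group had 2 biological replicates, without a control, an input or another tissue, so no test between conditions was possible and every comparison below is a description of these 2 libraries. The labels list a different set of Illumina instruments for each replicate, and instrument and replicate cannot be told apart.

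The deposited lists held 306572 peaks for replicate 1 and 455245 for replicate 2, and read depth is unknown. Every autosomal peak was 150 bp wide. The signal of a peak is the authors' own value, a whole number between 1 and 150 whose scaling is not given, with an autosomal median of 18 in replicate 1 and 8 in replicate 2. As a check of the tissue, both replicates had a peak at most 500 bp from a TSS of 6 of 8 midbrain and isthmus marker genes (not of Fgf8 and Lmx1b), 4 of 4 neural progenitor markers and 4 of 4 neuron markers. The same held for 1 of 3 erythroid, 1 of 4 endothelial, 1 of 4 microglial and 2 of 4 mesenchymal markers. Over all autosomal protein-coding genes it held for 66.2%. The count of 6 of 8 is not far above that share, and these short lists do not by themselves identify the tissue. Dissected tissue holds many cell types, and a site open in few cells cannot be told apart from one that is weakly open in many.

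In mammalian DNA the dinucleotide CpG is usually methylated and is lost over evolutionary time, because methylated cytosine mutates readily to thymine. Stretches that stay unmethylated in the germ line keep their CpGs and are known as CpG islands. Most islands mark promoters, but many lie far from annotated genes, and islands around developmental regulators can span several kilobases and are known targets of Polycomb proteins. The CpG ratio used here is the observed number of CpGs divided by the number that the C and G content would give, so it separates loss of CpG from GC content itself. A site was called CpG island-like where the 500 bp around its midpoint had a GC content of at least 50% and a CpG ratio of at least 0.6.

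The sites ranged from CpG-dense sequence to sequence with no CpG at all, and 6 of them show this range. The windows are the 150 bp around each midpoint, on the plus strand of mm10 (GRCm38), all outside annotated exons, with each CpG in capitals. Sites 1 to 4 are among the strongest of all, and site 5 had the highest CpG ratio in 500 bp. Site 6 was the strongest without a CpG, and was chosen after its values were seen. By the lower of its 2 percentiles of signal, 95.1, it was tied with a site at Zfp423.
Site 1, near A830005F24Rik, chr13:48546556-48546705: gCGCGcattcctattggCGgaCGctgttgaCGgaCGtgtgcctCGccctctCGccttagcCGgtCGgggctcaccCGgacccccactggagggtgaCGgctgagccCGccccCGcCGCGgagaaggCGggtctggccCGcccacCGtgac
Site 2, near Id4, chr13:48227796-48227945: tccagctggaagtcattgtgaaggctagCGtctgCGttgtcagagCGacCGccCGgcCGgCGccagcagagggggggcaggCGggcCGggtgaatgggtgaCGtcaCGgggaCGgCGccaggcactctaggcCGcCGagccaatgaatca
Site 3, near Spen, chr4:141545976-141546125: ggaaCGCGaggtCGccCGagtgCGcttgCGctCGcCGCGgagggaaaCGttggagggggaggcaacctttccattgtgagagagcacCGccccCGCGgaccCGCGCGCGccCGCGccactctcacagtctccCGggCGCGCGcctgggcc
Site 4, near Zfp395, chr14:65343796-65343945: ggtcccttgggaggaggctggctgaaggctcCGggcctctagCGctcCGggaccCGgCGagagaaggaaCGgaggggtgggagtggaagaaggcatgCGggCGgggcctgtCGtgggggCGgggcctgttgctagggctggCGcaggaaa
Site 5, in Unc45b, chr11:82931316-82931465: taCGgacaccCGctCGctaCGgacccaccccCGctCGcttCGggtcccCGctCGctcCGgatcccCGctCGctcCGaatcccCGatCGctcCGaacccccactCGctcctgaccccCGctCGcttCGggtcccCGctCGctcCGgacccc
Site 6, near Arvcf, chr16:18400886-18401035: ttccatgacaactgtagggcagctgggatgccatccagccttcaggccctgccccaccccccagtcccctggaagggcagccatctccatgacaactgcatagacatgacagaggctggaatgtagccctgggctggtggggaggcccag

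Site 1, with 19 CpGs and a CpG ratio of 0.945, had a signal of 141 in replicate 1 and 99 in replicate 2. It was intergenic, 33061 bp from the TSS of A830005F24Rik and 131 bp from the TSS of the lincRNA 6720427I07Rik. Site 2 had 15 CpGs, a CpG ratio of 0.893 and signals of 140 and 96. It lay in an intron of a noncoding gene, 33357 bp upstream of Id4, which encodes an inhibitor of basic helix-loop-helix factors, and 9380 bp from the nearest noncoding TSS. Site 3 had 23 CpGs and signals of 137 and 93, was intergenic 7454 bp upstream of Spen, which encodes a transcriptional repressor, and lay 138 bp from the start of the pseudogene B330016D10Rik. Site 4 had 11 CpGs and signals of 139 and 95, with no TSS of any gene within 2.5 kb. The lowest percentile of signal within a list among sites 1 to 4 was 99.8, for site 3 in replicate 1.

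Site 5 lay in an intron of Unc45b, a myosin chaperone gene, and its 23 CpGs fell in a repeated short unit that the reference does not mask. Its signal of 32 in replicate 1 and 40 in replicate 2 was far lower than that of sites 1 to 4. A neighbouring site at Unc45b with a CpG ratio of 1.35 had signals of 43 and 49. Site 6 lay in an intron, 8307 bp from the TSS of Arvcf, a catenin-family gene, and reached signals of 123 and 51 with a GC content of 62.0% and no CpG. High GC thus came with and without CpGs among strong sites.

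GC-rich distal regions were held by both replicates more often than distal regions of lower GC. A peak of each replicate was present in 45.3% of 13570 GC-rich distal merged regions (Wilson 95% interval 44.5 to 46.2%, counting error only) and in 12.7% of 297093 of lower GC, where all distal regions gave 14.1%. Of regions with a replicate 1 peak, 65.04% of GC-rich and 29.96% of lower-GC regions were shared. The values from replicate 2 were 59.95% and 18.06%. Signal moved with this. In class 5 of 5 by signal, the strongest, the shares were 82.6% and 78.4% in replicate 1 and 77.7% and 69.2% in replicate 2. In class 1 of 5 they were 11.1% (6 of 54) and 4.15% in replicate 1, and 1.75% (3 of 171) and 2.11% in replicate 2, where the order was the other way round. Within classes of signal the gap was much narrower than over all regions.

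The share held by both replicates was higher in each higher GC class. It was 3.97% below a GC content of 40%, 18.5% at 50 to 55%, 39.6% at 60 to 65%, 56.5% at 65 to 70% and 70.7% at 75% or more. The GC limit itself cut through a continuum. The 740 sites with 90 of 150 bases G or C, just inside it, had a median CpG ratio of 0.306 and median signals of 53 and 29. The 809 sites with 89 of 150, just outside, had 0.308 and signals of 54 and 30.

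The same question was put the other way round by tiling the genome, which gives the share of GC-rich distal windows that held a site. A window counts as holding a site only where the midpoint of the site lies in it. Windows that a site merely reached into were not counted, so the values are not the share of sequence that was open. Of 135958 non-overlapping 150 bp windows with high GC at the same distances from a TSS, 4.13% held the midpoint of a shared site. The share was 0.445% of 8594709 windows of lower GC. Counting each replicate on its own, high-GC windows held a site in 6.60% in replicate 1 and 7.08% in replicate 2 (mean 6.84%, SD 0.340, n = 2). Lower-GC windows held one in 1.48% and 2.45% (mean 1.96%, SD 0.685, n = 2). The 2 GC classes did not overlap between replicates. Most GC-rich distal windows therefore held no site midpoint in either count. High-GC windows that were 50% or more masked as repeats held a shared site in 0.248%, against 5.34% of the others, and how well reads map to repeats was not tested.

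Among high-GC windows, the share that held a site midpoint differed strongly with the CpG ratio. With a ratio under 0.2, 1.64% held a shared site, with 3.71% in replicate 1 and 4.01% in replicate 2. At 0.4 to 0.6 the shared value was 4.53%, and at 0.8 or more it was 17.7%, with 22.4% in replicate 1 and 23.0% in replicate 2. The step between the lowest and highest CpG class was far larger than the difference between replicates. At a GC content under 50% the corresponding shares went only from 0.196% to 0.669%.

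**Figure D1:**
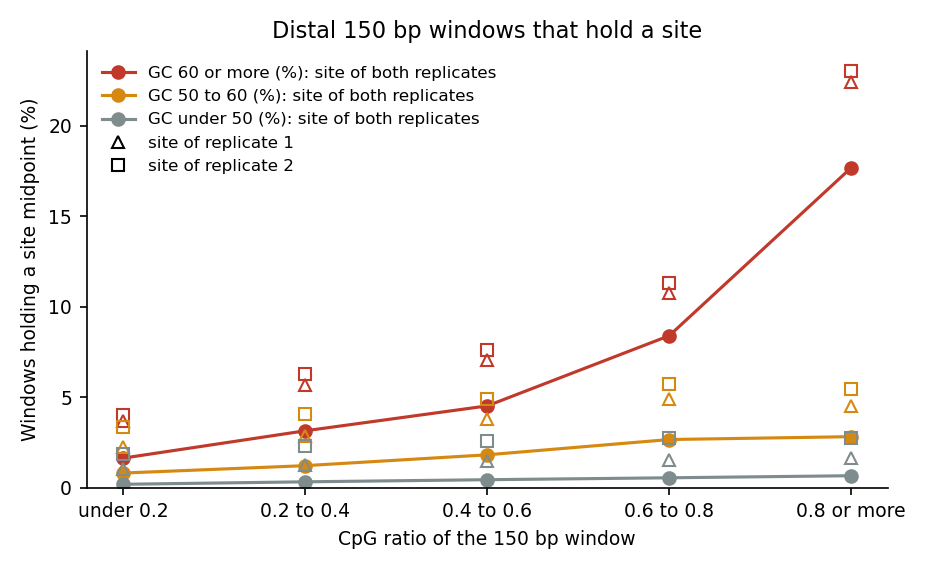
Share of 150 bp distal windows (vertical axis, percent) that hold the midpoint of a site, by CpG ratio of the window (horizontal axis) and GC class (colour); filled circles joined by lines count sites shared by both replicates, open triangles sites of replicate 1 and open squares sites of replicate 2. In high-GC windows the shared value goes from 1.64% to 17.7%, while windows with a GC content under 50% stay at or below 0.669%.

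Windows poor in CpG also differed with GC content, but not in the same way above 60%. With a CpG ratio under 0.2, the share was 0.196% at a GC content under 50%, 0.817% at 50 to 60% and 1.64% at 60% or more. Within the high-GC windows, those with a CpG ratio under 0.4 held a shared site in 2.39% at a GC content of 60 to 65%, 2.56% at 65 to 70%, 1.645% (19 of 1155) at 70 to 75% and 0.633% (1 of 158) at 75% or more. With a ratio of 0.6 or more, the shares in the same GC classes were 7.01%, 13.8%, 22.2% and 27.4%. Above a GC content of 60%, the share was thus higher in each higher GC class among CpG-rich windows and not among CpG-poor ones.

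The GC-rich distal sites had a median CpG ratio of 0.508 (quartiles 0.290 and 0.752), against 0.244 (0.120 and 0.397) at distal shared sites of lower GC and 0.646 (0.243 and 0.922) around protein-coding 5′ ends. They held a median of 7 CpGs in 150 bp, against 2 at lower GC. The promoters were taken at the most upstream TSS of every autosomal protein-coding gene, with or without a peak there. Their ratios fell into a CpG-poor and a CpG-rich mode, and the GC-rich distal sites filled the range between these modes without a gap. Sites with no CpG in 150 bp numbered 106 (1.72%), against 13.3% at lower GC.

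**Figure D2:**
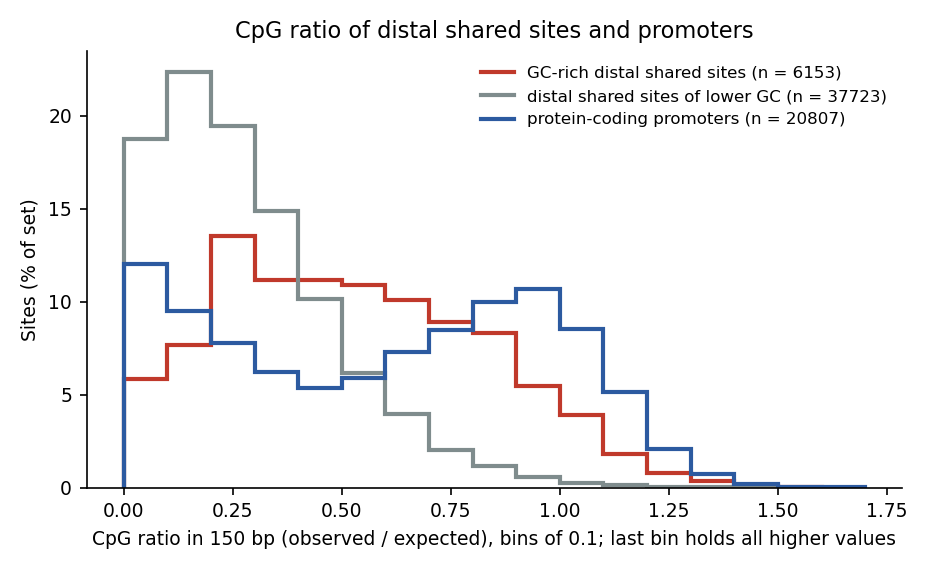
Distribution of the CpG ratio in 150 bp (horizontal axis, observed over expected) as a percent of each set (vertical axis) for GC-rich distal shared sites, distal shared sites of lower GC and protein-coding promoters. The GC-rich sites have a median of 0.508 and spread between the low values of the other distal sites, median 0.244, and the CpG-rich mode of promoters.

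CpG island-like sites numbered 1849, or 30.1% of the GC-rich sites (Wilson 95% interval 28.9 to 31.2%), where distal shared sites of any GC gave 5.25% and those of lower GC 1.21%. GC content is part of the definition, so this gap is partly built in. The share was 13.3% at a GC content of 60 to 65%, 42.1% at 65 to 70%, 77.4% at 70 to 75% and 93.7% at 75% or more. The remaining 4304 sites had a median CpG ratio of 0.372 in 150 bp, still above the 0.244 of the lower-GC sites. The combined ratio of TpG and CpA, the products of CpG decay, went the other way. It had a median of 1.43 at GC-rich sites with a CpG ratio under 0.2 and 1.07 at those with a ratio of 0.8 or more.

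GC-rich distal sites had higher signal than the other distal shared sites in both replicates. The median signal was 64 in replicate 1 and 40 in replicate 2, against 43 and 21 at lower GC, and the quartile ranges of the 2 sets overlapped (42 to 89 and 26 to 65 in replicate 1). As a percentile of all autosomal peaks of the same list, the GC-rich medians were 87.7 and 92.4. Hotspots, the broader enriched regions that the authors deposited beside the peaks, were also wider at these sites. Their median width was 477 bp in replicate 1 and 890 bp in replicate 2, against 315 and 386 bp at lower GC.

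Signal was also higher in each higher class of CpG ratio among the GC-rich sites. Their GC content was higher in these classes too. Its median was 61.3% under a ratio of 0.2, 62.7% at 0.4 to 0.6 and 69.3% at 0.8 or more. The 2 measures were not separated here. The median signal in replicate 1 was 55 under a ratio of 0.2, 65 at 0.4 to 0.6 and 74 at 0.8 or more. In replicate 2 the medians were 25, 39 and 54. Median hotspot width over the same classes went from 362 to 720 bp in replicate 1 and from 439 to 1439 bp in replicate 2. The lower-GC sites had the same order at a lower level, with median signals from 39 to 54 in replicate 1 and from 19 to 37 in replicate 2.

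**Figure D3:**
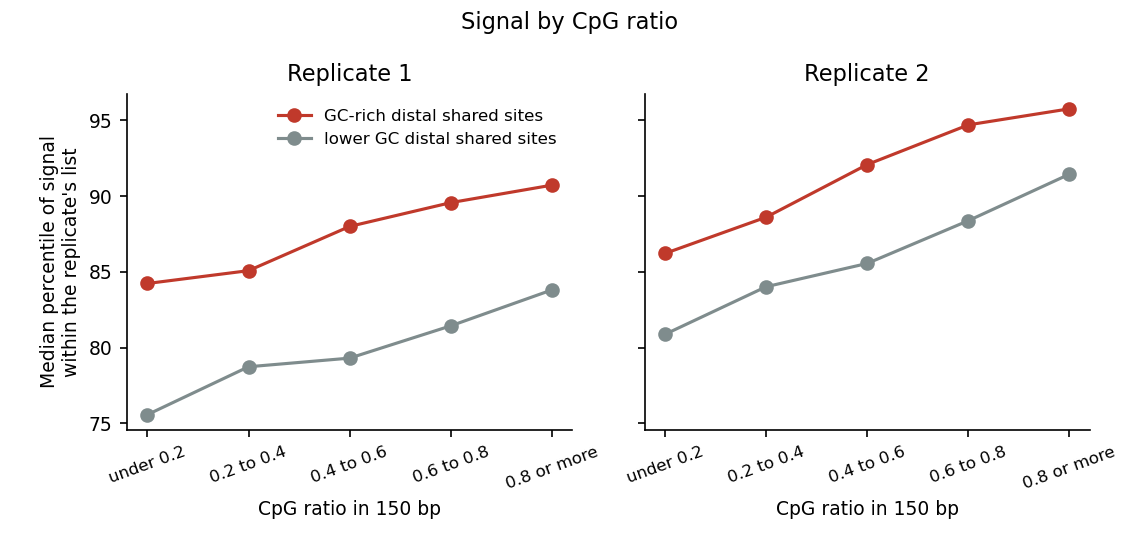
Median percentile of peak signal within each replicate's own list (vertical axis, starting at 75) by CpG ratio class in 150 bp (horizontal axis), for GC-rich and lower-GC distal shared sites. In both replicates the median is higher in each higher CpG class, from 84.2 to 90.7 in replicate 1 and from 86.2 to 95.8 in replicate 2 at GC-rich sites.

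The 2 libraries weighted CpG-dense sites differently. Across the 6153 sites the signals of the replicates had a Spearman rho of 0.696, and the signal was lower in replicate 2 at 88.3% of sites, as at 90.7% of lower-GC sites. The median ratio of replicate 2 over replicate 1 was 0.725 at CpG island-like sites and 0.567 at the other GC-rich sites. The rho between CpG ratio and percentile of signal was 0.220 in replicate 1 and 0.516 in replicate 2, over the same sites. Whether instruments, depth or the tissue pools account for this cannot be told apart with 1 library a replicate.

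GC-rich regions found in only 1 replicate were poorer in CpG. The 3307 GC-rich distal regions of replicate 1 only had a median CpG ratio of 0.332 and a median signal of 33. The 4110 of replicate 2 only had a ratio of 0.328 and a signal of 15. Both signals were well below the medians of 64 and 40 at shared sites. Merging the peaks of replicate 1 alone, so that regions had other midpoints, gave 9630 GC-rich distal regions, and those of replicate 2 alone gave 10043, against 6153 shared ones.

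GC-rich distal sites were closer to genes than the other distal sites and more often in coding sequence. Their median distance to a protein-coding TSS was 15871 bp, against 24347 bp at lower GC, and 37.1% lay within 10 kb, against 23.7%. Of the 6153 sites, 2521 (41.0%) were intergenic and 2006 (32.6%) in introns of protein-coding genes, where the lower-GC sites gave 44.0% and 43.8%. Coding exons held 715 (11.6%), against 1.54% at lower GC and 2.96% of distal shared sites of any GC. UTRs held 3.71%, exons of noncoding genes 4.62% and introns of noncoding genes 6.48%. Only 1.43% of the sites were 50% or more masked as repeats, against 6.04% at lower GC.

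The coding-exon sites had a median GC content of 66.0%, a median CpG ratio of 0.748 and median signals of 50 and 40. Sites outside exons had a higher median signal of 66 in replicate 1, the same median of 40 in replicate 2 and a lower median CpG ratio of 0.452. Some sites in coding exons had very high CpG ratios in 500 bp. A site 23261 bp from the TSS of Ier2, an immediate early gene, had a ratio of 1.31 and signals of 135 and 99. A site 6448 bp from the TSS of Dctpp1, a nucleotide pyrophosphatase gene, had 1.302 and signals of 132 and 103. Ier2 and Dctpp1 are the genes of the nearest TSS, and which gene holds each exon was not recorded. Among island-like sites, 22.0% lay in coding exons, against 7.18% of the other GC-rich sites.

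The label of these sites as away from promoters holds for the basic set of protein-coding transcripts, and only in part for other transcripts. A TSS of a noncoding gene lay within 500 bp of 551 GC-rich sites, or 8.95% (Wilson 95% interval 8.27 to 9.69%), against 2.79% at lower GC and 3.66% of distal shared sites of any GC. In 301 of them the distance was at most 150 bp. These 551 sites lay at 498 distinct noncoding genes. By class, 338 were at long noncoding RNA genes, 118 at pseudogenes, 52 at small RNA genes and 43 at genes whose status awaits experiment (TEC). The annotated start of a microRNA entry is the end of the hairpin, and that of a pseudogene entry can be the end of the copied sequence. Such an end is not a measured start of transcription. Some pseudogene sites were at entries of a transcribed type, with 20 at transcribed unprocessed, 8 at transcribed processed and 2 at transcribed unitary pseudogenes.

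Starts outside the rule's transcript set were counted as well, a step chosen after the data were seen. A RefSeq mRNA start lay within 500 bp of 363 GC-rich sites (5.90%), against 1.25% at lower GC. The comprehensive GENCODE set placed a TSS of a protein-coding gene within 500 bp of 553 sites (8.99%), against 2.26%. With every transcript start of both sources, 1432 sites (23.3%) had a start within 500 bp, against 7.74% at lower GC. The other 76.7% of GC-rich sites had none.

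Noncoding starts were found most often at CpG-rich sites. The share within 500 bp of a noncoding TSS was 2.65% at a CpG ratio under 0.2, 7.001% at 0.4 to 0.6 and 19.4% at 0.8 or more. At lower GC the share in the last class was 9.94%. Among GC-rich sites the share also differed with GC content, from 6.03% at 60 to 65% to 17.9% at 75% or more. GC content and CpG ratio were not separated here. Of the island-like sites 18.3% were near a noncoding TSS, against 4.93% of the other GC-rich sites. Signal was higher with such a start, with medians of 72 and 50 against 63 and 39 without. The island-like sites without any basic TSS within 2.5 kb numbered 1320, with medians of 72 and 54. Of these, 347 (26.3%) had a RefSeq or comprehensive GENCODE transcript start within 500 bp.

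**Figure D4:**
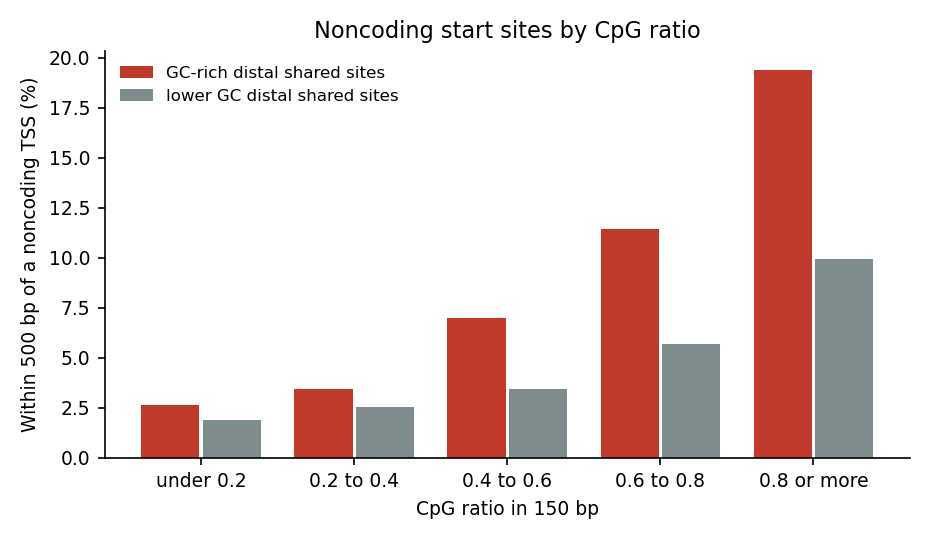
Share of sites within 500 bp of a noncoding TSS (vertical axis, percent) by CpG ratio class in 150 bp (horizontal axis) for GC-rich and lower-GC distal shared sites. The share goes from 2.65% to 19.4% at GC-rich sites and from 1.91% to 9.94% at lower-GC sites.

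The classes of noncoding gene differed in signal and CpG ratio. Sites at long noncoding RNA starts had median signals of 80.5 and 52 and a median CpG ratio of 0.726. Sites at pseudogene starts had lower median signals of 48.5 and 40 with a higher ratio of 0.864, and 82.2% of them were island-like, against 55.6% at long noncoding RNAs. The strongest of all GC-rich sites, chr5:151368596-151368845, lay 3 bp from the TSS of the noncoding gene 1700028E10Rik, with signals of 144 and 104. The next at noncoding starts were site 1, site 3, a site 312 bp from the lincRNA 1700096K18Rik with signals of 140 and 92, and one 11 bp from the lincRNA Gm2885 near Ezr with 138 and 91.

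Of the sites at small RNA genes, 30 were at microRNA hairpins, and those named here were picked from the list after it was seen. A site 353 bp from Mir9-3, one of the loci of miR-9, which is known from neural progenitors, had signals of 137 and 81. Mir124a-1, a locus of the neuronal miR-124, had 2 sites, with signals of 71 and 55 and of 61 and 36. Mir132 and Mir212, neighbouring neuronal microRNA genes, had sites with signals of 103 and 69 and of 91 and 67. Mir129-2 had a site with signals of 35 and 55, where replicate 2 was the higher. The entries Mir210, a hypoxia-responsive microRNA, with 135 and 87, and Mir203, known from skin, with 73 and 58, show that the list was not confined to neural genes.

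Each GC-rich site was assigned to the gene of the nearest protein-coding TSS, which does not show that it acts on that gene. A site was assigned to 3553 of 20807 autosomal genes (17.1%), and 2256 of these had a single site. The 298 genes with 4 or more held 26.3% of all sites. A peak of each replicate lay at a TSS of the nearest gene for 81.5% of GC-rich sites and 81.1% of lower-GC sites. These shares do not differ by more than counting error. Of all genes, 66.2% had such a peak. The shares of sites count a gene with many sites many times, while the last counts each gene once, so they are not like for like.

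Developmental regulators led the list of genes. Pax2, a paired-box factor of the midbrain-hindbrain boundary, had 27 GC-rich sites and 15 of lower GC, with signals from 18 to 101 in replicate 1 (median 53) and from 4 to 69 in replicate 2 (median 46). Its sites lay 3474 to 86254 bp from the TSS, and 11 were island-like. Uncx, a homeobox gene, had 18 sites, 8 of them island-like, with median signals of 57.5 and 39.5. Sox1, a factor of neural progenitors, had 12 sites, 7 island-like and 3 near a noncoding TSS, with medians of 67.5 and 54.

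Other leading genes differed in CpG content. Gse1, which encodes a coiled-coil protein, had 17 sites, none island-like, with a median CpG ratio of 0.347 and median signals of 84 and 37. Zfp423, a zinc finger gene of the developing hindbrain, had 12 sites with a median ratio of 0.365 and 1 island-like. Casz1, another zinc finger gene, had 12 sites with 5 island-like. Cxxc5, whose protein binds unmethylated CpG, had 16 sites against 7 of lower GC. Its median CpG ratio was 0.613 and its median signals were 80.5 and 45. Its neighbour Psd2 had 15 sites with a median CpG ratio of 0.721, and 1700001O22Rik had 14.

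**Figure D5:**
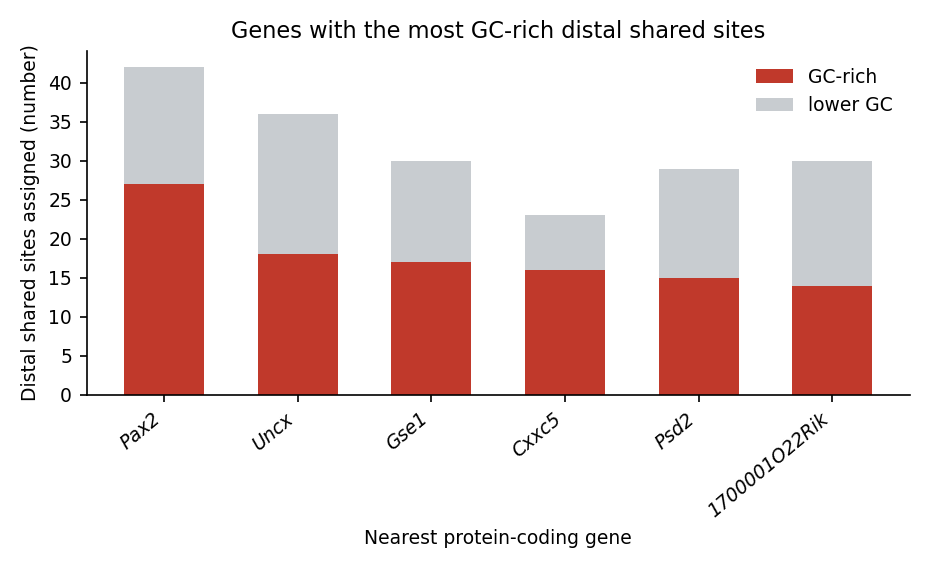
Number of distal shared sites (vertical axis) assigned to each of the 6 protein-coding genes with 14 or more GC-rich sites (horizontal axis), split into GC-rich and lower-GC sites. Pax2 has 27 GC-rich and 15 lower-GC sites, while Uncx has 18 of each.

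Gene lists chosen for this tissue were counted beside the 17.1% of all autosomal genes with a GC-rich site. Genes in wide gene deserts collect more sites of any kind, so the share of each list's distal shared sites that were GC-rich is given with it. That share was 14.0% over all genes. Of 20 midbrain and isthmus patterning genes, 16 had a site, 86 in all, and 30.0% of their distal shared sites were GC-rich. Beside Pax2 the list held Lmx1b, a LIM homeobox gene, with 10 sites and median signals of 59 and 41, although no peak of both replicates lay at its TSS. Of 19 neural progenitor genes, 14 had a site, 69 in all, with 23.0% GC-rich. Pou3f3, a POU factor of this list, had 9, with median signals of 81 and 49.

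Of 19 neuronal differentiation genes, 13 had a site, with 8 at Ebf3, of which 6 were island-like, and 7 at Onecut1, and 19.6% of the list's distal shared sites were GC-rich. Of 21 genes of midbrain neuron specification, 14 had a site, with 6 at Lhx5, a LIM homeobox gene of early neurons, and 5 at Foxa1, a floor-plate and dopaminergic progenitor factor with median signals of 54 and 53, and the GC-rich share was 20.5%. Of 19 forebrain patterning genes, 14 had a site, with 7 at Lhx2 and 6 at Dlx2. The forebrain list had 41 sites against 86 in the midbrain and isthmus list, and a GC-rich share of 23.2% against 30.0%. Pax2 alone held 27 of the 86, so this gap rests in large part on 1 gene. The median number of GC-rich sites per gene was 2.0 in the forebrain list and 2.5 in the midbrain and isthmus list. Of 18 hindbrain and anterior Hox genes 9 had a site, with 6 at Lbx1 and 4 at Ptf1a and a GC-rich share of 15.8%. Of 22 posterior Hox genes 5 did, with 1 each at Hoxb9 and Hoxb13. Their GC-rich share was 21.7%, from 5 GC-rich and 18 lower-GC sites.

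Signalling genes were uneven. Of 24 Wnt pathway genes, 20 had a site, 36 in all, the highest share of genes among the lists (83.3%), with a GC-rich share of sites of 19.1%. Wnt7b, a Wnt ligand gene, had 5, with signals up to 137 and 92, and Axin2, a feedback inhibitor of the pathway, had 4 with a low median CpG ratio of 0.251. Of 13 hedgehog pathway genes 4 had a site, with 7 at the ligand gene Shh, of which 3 were island-like, and 4 at its receptor gene Ptch1, and the GC-rich share was 14.6%. Of 13 FGF receptor and signalling genes 5 had a site, with 5 at the receptor gene Fgfr3 and 3 at Etv4, whose median CpG ratio was 0.142. The GC-rich share of the FGF list was 17.1%.

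Among lists for other tissues and functions, only the liver list had a GC-rich share below the 14.0% of all genes. None of 15 liver genes had a GC-rich site, while 12 had a lower-GC one. The list held only 24 lower-GC sites in all, so its share rests on few sites. Of 14 erythroid genes 4 had a site, with 2 at Tal1, both island-like, and 1 at Ank1, and the GC-rich share was 21.7%, from 5 GC-rich and 18 lower-GC sites. Of 17 endothelial genes 10 had a site, with 3 at Sox17 and 2 at Flt1 and a GC-rich share of 17.5%. Of 18 mesenchyme and neural crest genes 11 had a site, with 6 at Foxc1 and 5 at Tfap2a, all 5 island-like. Their GC-rich share was 26.2%. Of 20 cell cycle genes 6 had a site, with 3 each at Ccnd1 and Ccnd2, and of 18 housekeeping genes 6 did, with 3 at Eef1a1. The GC-rich shares were 18.97% and 20.45%. Of 15 imprinted genes 6 had a site, with a GC-rich share of 26.9%. Cdkn1c, a cell cycle inhibitor gene expressed from the maternal copy, had 9 GC-rich sites and 1 of lower GC, and Dlk1 had 8 and 9.

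Many sites lay close together. Of the 6153, 2144 (34.8%) had another within 5000 bp, in 873 runs, and 88 runs held 4 or more. Runs of lower-GC sites were not counted, so whether such closeness is particular to GC-rich sites was not tested. Members of a run can share a hotspot and are not independent. Runs of 9, the longest, were found at 4 places. The run upstream of Pax2, chr19:44740376-44752645, held signals from 28 to 63 in replicate 1 and from 28 to 69 in replicate 2, with CpG ratios from 0.224 to 1.09. Neighbouring sites there were ordered differently by the replicates, with 34 and 69 at one site and 62 and 35 at another. The run at Uncx, chr5:139546796-139559265, began with 3 sites in coding exons and went on downstream, with a median CpG ratio of 0.735.

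Some long runs lay around noncoding genes, 26708 bp or more from a protein-coding TSS. The run at chr7:79494556-79515665, 28269 bp or more from Polg, a mitochondrial polymerase gene, covered the host gene of miR-9 at this locus, Mir9-3hg. Its median signals were 80 and 48 and its median CpG ratio 0.820, and its strongest site was 353 bp from Mir9-3, with 137 and 81. A site 827 bp from Mir9-3 had 122 and 62, and one 126 bp from the Mir9-3hg TSS had 118 and 46. The run of 8 at chr2:180889336-180894365, assigned to Ythdf1 at 26708 bp or more, lay at Mir124a-3, another miR-124 locus, and the lincRNAs Gm14342 and Gm27032. Its strongest site was 136 bp from the Gm27032 TSS, with 122 and 72. The run of 9 at chr2:30707756-30725845 held Gm14488 and Mir3089, with signals up to 129 and 72. A run of 8 at chr15:103170096-103184165 was of another kind, intergenic, 3119 to 16989 bp from the Smug1 TSS, 23383 bp or more from a noncoding TSS and with no island-like member. Its median signals were 73.5 and 44.

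Density differed between chromosomes. It ranged from 1.23 sites per Mb on chromosome 3 to 4.74 on chromosome 11, and the GC-rich share of distal shared sites ranged from 9.02% on chromosome 3 to 18.3% on chromosome 4. The median CpG ratio varied less, from 0.454 on chromosome 4 to 0.581 on chromosome 14.

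Short consensus sequences of factor families were searched on both strands in the same 150 bp, and a match is a description of letters, not a binding event. Matches depend on base composition, so they are given for GC-rich distal sites, lower-GC distal sites and all 20807 protein-coding promoters of the same length. The promoters again include those without a peak. The GC box of SP and KLF factors (GGGCGG) was in 32.7% of GC-rich sites, 5.37% of lower-GC sites and 37.3% of promoters. Within GC-rich sites it was in 22.7% at a GC content of 60 to 65% and 50.1% at 65% or more, and 63.5% of promoters with high GC held it. A stretch that matches the EGR sequence (GCGTGGGCG, 0.309% of GC-rich sites) can also match the GC box. The palindromic AP-2 sequence (GCCNNNGGC) was in 17.9%, 4.67% and 12.8%, and in 20.8% of promoters with high GC.

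Sequences of promoter-type factors with CpG in them were scarcer than at promoters. ETS (CCGGAAG) was in 3.28% of GC-rich sites, 1.02% of lower-GC sites and 8.61% of promoters, and among promoters with high GC in 12.6%. NRF1 (GCGCATGCG) was in 0.666%, 0.117% and 1.62%, and YY1 (AAGATGGCG) in 0.228%, 0.284% and 1.60%. The E2F sequence (TTCCCGC) was in 3.61%, 0.790% and 3.48%, close to all promoters but below the 5.36% of promoters with high GC.

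Sequences of neural and architectural factors had other orders. The E-box CAGCTG of proneural factors was in 20.4% of GC-rich sites, 13.5% of lower-GC sites and 9.43% of promoters, whereas the E-box CAGATG was in 10.8%, 15.4% and 6.67%. Inside the GC-rich sites CAGCTG was in 12.7% of island-like sites and 23.8% of the others. The ZIC sequence (CAGCAGG) was in 14.2%, 9.80% and 6.13%, again less often in island-like sites (8.004%) than in the others (16.8%). The CTCF sequence was in 4.97%, 9.79% and 0.211%. AT-containing sequences were scarce at GC-rich sites, with the homeodomain sequence TAATTA in 0.699% against 3.46% at lower GC, and the SOX sequence (ACAATGG) in 1.41% against 3.23%.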

How the data were processed

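The authors deposited 1 peak list and 1 hotspot list for each replicate on mm10, per the labels. Peak signal is the deposited signal value with no stated normalization, and hotspot q-values are deposited on a −log10 scale, from 1.3 to a ceiling of 100. Which aligner, peak caller and filters were used is not given in the sources used here, and depth is unknown.

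Peaks on chromosomes 1 to 19 were merged at an overlap of 1 bp. Sequence came from GRCm38.p6 and genes from GENCODE vM21. A TSS is the 5′ end of any basic transcript. Merging, distances and base counts were tested on simulated data. Scripts used Python 3.11.15, numpy 2.4.6, pandas 2.3.3 and statsmodels 0.14.6. The 95% intervals are Wilson intervals, which cover counting error only, and sites are not independent. No other test was made, because the labels give 1 group.

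The sites and lists were chosen with earlier results of these data known. Named items are the 10 genes with most sites, the 2 genes with most sites from each list, the strongest sites by the lower of their 2 percentiles of signal (all, near a noncoding TSS, and island-like without a TSS within 2.5 kb) and those with the highest CpG ratio in 500 bp. Some genes that the rule takes are left out of the text. Other named items, such as runs and microRNA genes, were chosen after their values were seen.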

Additional observations from a re-analysis of the deposited data

How the results depend on the processing

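The number of GC-rich distal shared sites, 6153, was 3927 with hotspots in place of peaks, 14075 at a GC content of 55% or more, 2240 at 65% or more and 3735 in a 300 bp window. Their share of distal shared sites, 14.0%, was 16.0% with the stronger 50% of each replicate's peaks and, over the settings just named, 9.60%, 32.1%, 5.11% and 8.51%. The median CpG ratio, 0.508, was 0.445, 0.352, 0.757 and 0.591 in that order, 0.486 with TSSs of every protein-coding transcript and 0.481 with a lower limit of 5 kb. The share near a noncoding TSS, 8.95%, was 9.70%, 6.04%, 14.1% and 11.7% in that order, 9.56% with TSSs of every protein-coding transcript, 9.61% with the 5 kb limit, 9.35% with every noncoding transcript, 4.89% within 150 bp, 12.1% within 1000 bp and, added after seeing the data, 13.3% with any RefSeq start. The share of high-GC windows holding a shared site, 4.13%, was 2.30% at 55% or more and 8.69% at 65% or more. Without one replicate or the other, these results ranged from 9630 to 10043 sites, 4.57% to 7.08%, 0.425 to 0.436, 7.46% to 7.76% and 6.60% to 7.08%. A 50% reciprocal overlap gave 4766 sites and leaving out masked sites 6065, both within 1.5 times the count, and neither moved the other shares and the median CpG ratio it was run on by more than the SD of the single-replicate values. The causes of these shifts were not tested beyond the change of setting itself. No paired analysis was possible because there is only 1 group. Read depth is unknown, which limits what an absent peak can show.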
